A study of Homo sapiens with 12 samples.

Results

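The receptors and enzymes of the endocannabinoid system were followed through 7 genes, namely the cannabinoid receptors CNR1 and CNR2, the ligand-synthesizing enzymes NAPEPLD, DAGLA and DAGLB, and the ligand-degrading enzymes FAAH and MGLL. A probe was counted for a gene when its gene name on the array design equalled one of these symbols, which gave 10 of the 41000 gene probes for 7 of the 30238 gene names. Matching by RefSeq accession added 0 further probes. CNR1, CNR2 and NAPEPLD have 2 probes each and the other 4 genes have 1. The question was whether the genes for ligand synthesis and breakdown moved as CNR1 did when PAX3-FKHR was downregulated.

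Endocannabinoids are lipid messengers that cells release from their own membrane phospholipids on demand. The best known are anandamide, which NAPEPLD (N-acyl phosphatidylethanolamine phospholipase D) can release from its precursor and FAAH (fatty acid amide hydrolase) breaks down, and 2-arachidonoylglycerol, which the diacylglycerol lipases DAGLA and DAGLB make and MGLL (monoglyceride lipase) breaks down. Both ligands act on G protein-coupled receptors, CB1 (encoded by CNR1, best known from the brain) and CB2 (encoded by CNR2, best known from immune cells). MGLL also splits monoglycerides released from stored fat.

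The cells were Rh30, a human alveolar rhabdomyosarcoma line that carries the fusion of PAX3 with FKHR (also named FOXO1). RNA came from untransfected Rh30 cells (WT), a control clone with a stable non-targeting shRNA (CON) and a knockdown clone with a stable shRNA against PAX3-FKHR (KD1). CON and KD1 are 1 clone each and were grown with 1 μg/ml puromycin, WT was grown without it, and RNA was extracted after 24 h. The 12 two-color Agilent arrays hold 6 RNA extracts, 2 per culture, compared pairwise (WT vs CON, KD1 vs CON, KD1 vs WT) with 2 replicates, each of them hybridized 2 times with the dyes exchanged, so that each extract was measured on 4 arrays and each culture on 8. Both KD1 comparisons share the same KD1 extracts, and with 1 clone each, clone and shRNA cannot be told apart in KD1 vs CON; relative to WT, puromycin cannot be told apart from them either.

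The 12 arrays were on 3 slides, 1 for WT vs CON, 1 for KD1 replicate 1 and 1 for KD1 replicate 2, so that every KD1 replicate value is also a within-slide value. Between 71.1% and 73.6% of the spots in Cy3 and between 64.4% and 67.8% in Cy5 were well above background, and the tests rest on 2 extracts per culture. Of 12 markers of the muscle lineage and of fusion-positive tumors, 8 were well above background in all 24 channels (among them MYOD1, MYOG and DES), while TFAP2B was in none. Of 15 markers of other cell types, 6 were in all 24 channels and PTPRC and ALB in none, and their summed signal was 3952 and 3981 in the WT extracts, 3135 and 3271 in CON, and 2944 and 3440 in KD1. The 3 PAX3 and 2 FOXO1 probes, which can read the unfused genes as well as the fusion, had mean log2 ratios of −0.42 to −0.09 in KD1 vs CON, and none passed the test (limma adjusted p 0.326 to 0.892). These probes do not settle whether the fusion transcript was reduced on these arrays.

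The sequences of 4 probes show what the arrays read for MGLL and FAAH, which have no other probe, and for the second, dimmer probes of CNR1 and NAPEPLD, whose values are set beside those of the brighter probes. Each is 60 bases long and written 5′ to 3′. Exon, coding and UTR positions of the probes were not assigned here.
CNR1 A_24_P363259: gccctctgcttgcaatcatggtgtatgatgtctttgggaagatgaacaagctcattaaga
MGLL A_24_P226008: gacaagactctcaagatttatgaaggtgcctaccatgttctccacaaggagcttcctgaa
FAAH A_23_P103226: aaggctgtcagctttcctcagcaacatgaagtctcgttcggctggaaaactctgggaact
NAPEPLD A_32_P105637: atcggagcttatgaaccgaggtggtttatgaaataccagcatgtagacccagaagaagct

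Positions are those of the array files on build NCBI36. The CNR1 probe above lies at chr6:88910584-88910643 on the minus strand, and the brighter CNR1 probe A_23_P214208 at chr6:88906701-88906760, which is 3883 bases nearer the 3′ end of the gene. The MGLL probe covers chr3:128893812-128896522 (2711 bases), the FAAH probe chr1:46649078-46649894 (817 bases) and the NAPEPLD probe chr7:102542818-102547279 (4462 bases), so that these 3 span an intron and read spliced RNA. The brighter NAPEPLD probe A_32_P117170 lies at chr7:102527844-102527903 and the DAGLB probe at chr7:6415827-6415886, both on the minus strand. The DAGLA probe lies at chr11:61270960-61271019 on the plus strand, and the CNR2 probes at chr1:24073107-24073166 and chr1:24069604-24069663 on the minus strand.

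CNR1 was downregulated in KD1, and no ligand-synthesizing or ligand-degrading enzyme passed the test in any comparison. By its brighter probe, the measured CNR1 signal was 4.92-fold lower in KD1 than in CON and 16.5-fold lower than in WT. These folds are not exact, since the KD1 signal lay close to background (well above it on 3 of 8 arrays). By the same probe WT, which has no shRNA, was 3.07-fold higher than CON, without passing the test (limma adjusted p 0.0811). By the dimmer probe, well above background on 6 of 8 KD1 arrays, CNR1 in KD1 was 1.555-fold lower than in CON, untested. It was 1.73-fold lower than in WT (limma adjusted p 0.162). The call in KD1 vs CON also depended on the processing. MGLL came nearest among the enzymes, at 2.00-fold lower in KD1 than in CON and 1.90-fold lower than in WT, but its adjusted p stayed above 0.05. By its brighter probe NAPEPLD differed by at most 1.15-fold in any comparison, and DAGLB differed by 1.07-fold between KD1 and CON. DAGLA, FAAH and CNR2 gave signals at or near background, so that the arrays carry little information on them.

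**Figure D1:**
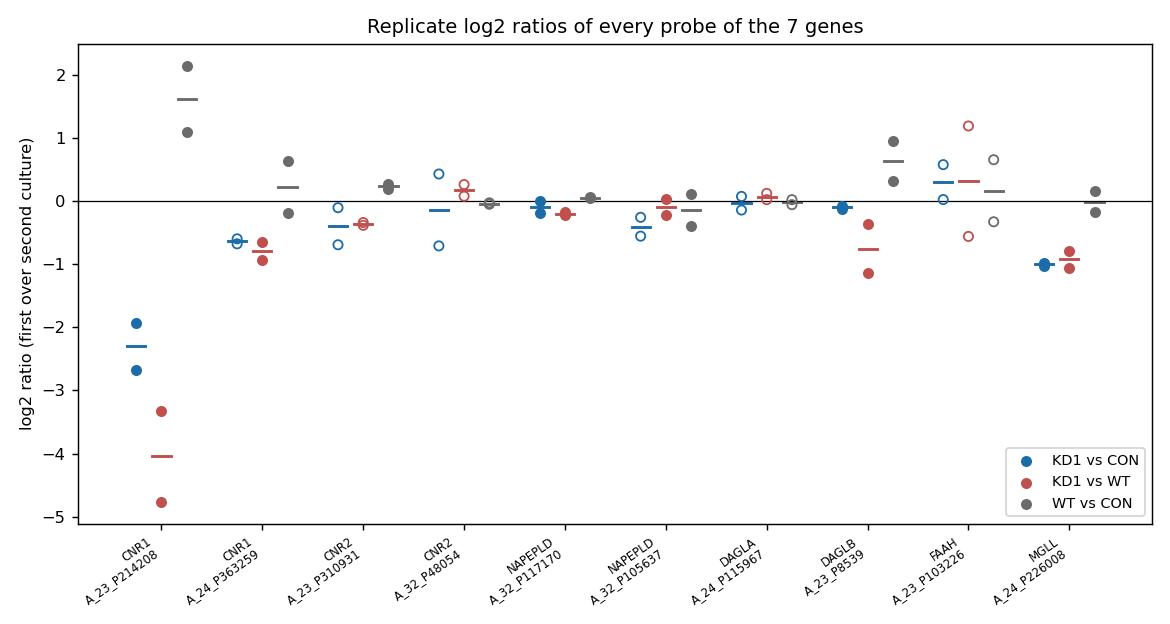
Log2 ratio (vertical axis, first culture over second) of each of the 10 probes (horizontal axis) in the 3 comparisons. Each point is 1 replicate and each bar the mean of 2. Open points are probes left out of the test in that comparison by the filter on dim probes. CNR1 by A_23_P214208 had the largest ratios of the 10 probes, MGLL lay near −1 in both KD1 comparisons, and NAPEPLD by A_32_P117170 lay near 0 in all 3.

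The normalized signal of CNR1 by A_23_P214208 was 318 and 121 in the 2 WT extracts, 72.3 and 55.2 in CON, and 11.7 and 13.2 in KD1. All 3 cultures were apart from each other, with WT highest and KD1 lowest, and the 2 WT extracts lay further from each other than those of either clone. In WT and in CON 8 of 8 arrays were well above background at this probe, in KD1 3 of 8, so that the signal left in KD1 was close to background. The log2 ratio of KD1 vs CON was −2.94 and −2.39 on the dye-swap pair of replicate 1 and −2.03 and −1.83 on that of replicate 2, with a mean of −2.30 ± 0.52 (SD, n = 2). All 4 arrays were below 0 in both dye orientations, and the limma fit gave an SE of 0.35, a 95% interval of −3.11 to −1.49 and an adjusted p of 0.0269. In KD1 vs WT the 4 arrays gave −4.47, −5.06, −3.65 and −3.00, with a mean of −4.04 ± 1.02 (SD, n = 2) and a limma adjusted p of 0.00401. In WT vs CON all 4 arrays were above 0, from 1.04 to 2.26, with a mean of 1.62 ± 0.74 (SD, n = 2), which missed the threshold with a limma adjusted p of 0.0811 (unadjusted p 0.00216).

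CNR1 is among the genes that the study selected from these same arrays, so its decrease here is not independent evidence. The call in KD1 vs CON depended on the processing. The limma adjusted p was 0.0643 without the filter on dim probes, 0.0619 with median centring, 0.0636 and 0.0663 with separate channels (without and with the replicate block) and 0.0950 with the variance divisor of 2 used at first, which was replaced by 3 after the results were seen, and with normexp background correction and loess the mean ratio was −0.35 with an adjusted p of 0.564.

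The dimmer CNR1 probe A_24_P363259 gave smaller ratios in the same direction. Its normalized signal was 52.9 and 35.9 in WT, 35.1 and 34.8 in CON, and 25.8 and 23.3 in KD1. The KD1 extracts were the lowest, and the second WT extract lay close to the CON extracts. The mean log2 ratio was −0.64 ± 0.06 (SD, n = 2) in KD1 vs CON, where the probe was too dim to be tested, and −0.79 ± 0.20 (SD, n = 2) in KD1 vs WT, where the limma adjusted p was 0.162. In WT vs CON it was 0.22 ± 0.58 (SD, n = 2), with replicates on both sides of 0. The 2 probes of CNR1 thus disagreed on the size of the decrease by 1.66 on the log2 scale against CON and by 3.25 against WT, and their mean gave −1.47 and −2.42. Whether the probes read different transcripts was not tested.

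**Figure D2:**
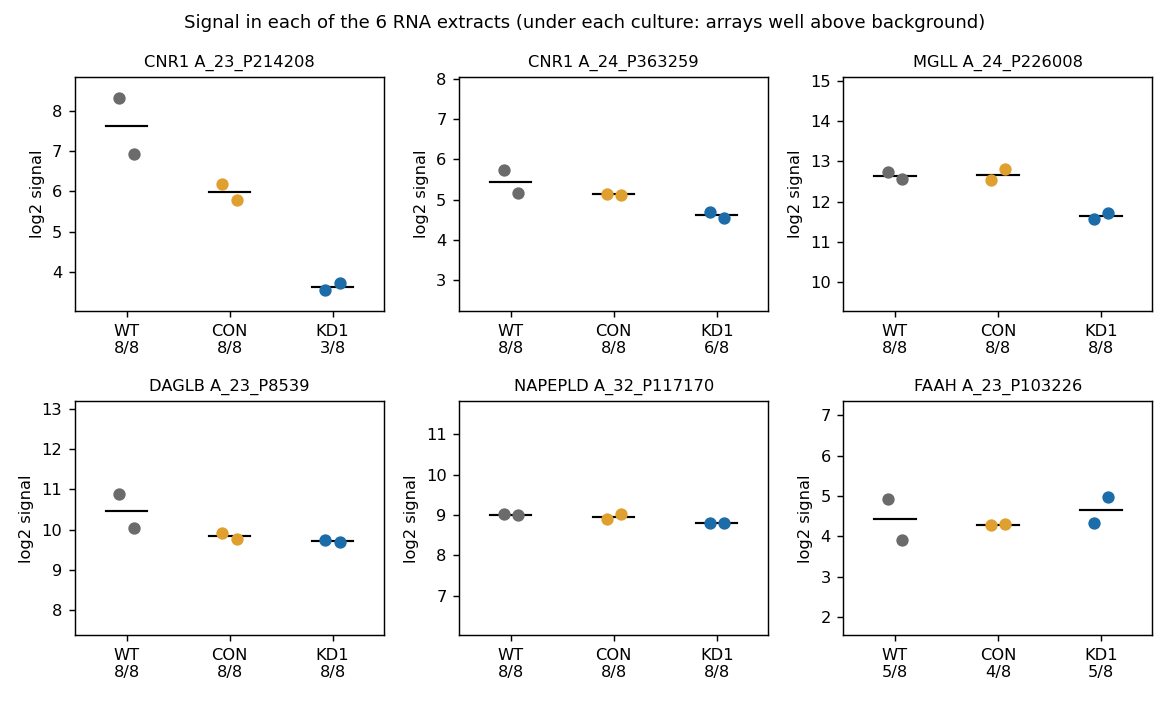
Normalized log2 signal (vertical axis, each panel with the same height in log2 units but its own range) of 6 probes in the 2 RNA extracts of WT, CON and KD1; each point is 1 extract (mean of 4 arrays), each bar the mean of 2, and the fraction under a culture is the number of its 8 arrays on which the probe was well above background. All probes shown except that of FAAH were lowest in both KD1 extracts. The gap to CON was widest for CNR1 by A_23_P214208 and for MGLL, while NAPEPLD and DAGLB in KD1 lay close to CON.

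CNR2 was measured near background. The brighter probe A_23_P310931 was well above background on 6 of 8 WT arrays, 5 of 8 CON arrays and 3 of 8 KD1 arrays, and the other probe A_32_P48054 on 0 of 8 arrays of each culture. Its normalized signal was 22.6 and 20.8 in WT, 19.1 and 20.1 in CON, and 19.8 and 12.8 in KD1, so that 1 KD1 extract lay among the CON extracts and the other below them. It could be tested only in WT vs CON, where the mean log2 ratio was 0.24 ± 0.06 (SD, n = 2) with a limma adjusted p of 0.637. A difference in this receptor between cultures was not detectable at this signal.

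MGLL, the enzyme that breaks down 2-arachidonoylglycerol, was well above background on 8 of 8 arrays of each culture. Its normalized signal was 6777 and 6019 in WT, 5975 and 7130 in CON, and 3065 and 3378 in KD1. WT and CON overlapped, and both KD1 extracts lay below all 4 others. The log2 ratio of KD1 vs CON was −1.04, −0.92, −1.03 and −1.01 on the 4 arrays, a mean of −0.999 ± 0.030 (SD, n = 2), with a 95% interval of −1.46 to −0.54 and a limma adjusted p of 0.0569 (unadjusted p 0.00123). In KD1 vs WT the 4 arrays gave −1.13, −0.99, −0.59 and −0.98, a mean of −0.92 ± 0.19 (SD, n = 2), with a limma adjusted p of 0.0915 (unadjusted p 0.00241). All 8 KD1 arrays were below 0, and the 95% intervals of both KD1 comparisons excluded 0 before adjustment. These 8 arrays repeat the same 2 KD1 extracts, so neither the arrays nor the 2 intervals are independent of each other. In WT vs CON the mean was −0.01 ± 0.23 (SD, n = 2), with 2 arrays on each side of 0 and an interval of −0.49 to 0.48. MGLL did not pass the adjusted threshold in any KD1 comparison under any processing that was run, with adjusted p values no lower than 0.0569 and 0.0854. The difference between MGLL and CNR1 was not tested. Against CON the dimmer CNR1 probe, at −0.64, lay inside the MGLL interval, and the interval of the brighter one ended at −1.49, next to the lower MGLL bound of −1.46. Without the filter on dim probes these 2 intervals overlapped. Against WT the interval of the brighter CNR1 probe, −4.87 to −3.215, lay apart from that of MGLL, −1.40 to −0.45. The dimmer CNR1 probe, at −0.79, lay inside the latter.

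DAGLB, which makes 2-arachidonoylglycerol, did not show between the clones a decrease of the size read by the brighter CNR1 probe. Its normalized signal was 1872 and 1059 in WT, 968 and 865 in CON, and 851 and 821 in KD1. The first WT extract stood above the other 5, as it did for CNR1, and CON and KD1 were close together without overlap. The mean log2 ratio was −0.10 ± 0.04 (SD, n = 2) in KD1 vs CON, with 2 arrays on each side of 0 and a limma adjusted p of 0.897. The 95% interval of −0.66 to 0.46 corresponds to between 0.634 and 1.38 of the CON level. The brighter CNR1 probe, at −2.30, lay outside this interval. The dimmer one, at −0.64, and the brighter one with normexp and loess, at −0.35, lay inside it. In KD1 vs WT the mean was −0.76 ± 0.55 (SD, n = 2), with all 4 arrays below 0 and a limma adjusted p of 0.190, and in WT vs CON it was 0.63 ± 0.44 (SD, n = 2), with all 4 arrays above 0 and a limma adjusted p of 0.267.

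NAPEPLD, which can release anandamide, was nearly flat by its brighter probe. The normalized signal was 523 and 509 in WT, 476 and 517 in CON, and 448 and 445 in KD1. KD1 was lowest by a small margin and WT overlapped with CON. The mean log2 ratio of KD1 was −0.09 ± 0.13 (SD, n = 2) against CON and −0.20 ± 0.04 (SD, n = 2) against WT, and that of WT against CON was 0.06 ± 0.01 (SD, n = 2), with limma adjusted p values of 0.874, 0.644 and 0.922. The 95% interval in KD1 vs CON ran from 0.692 to 1.27 of the CON level, or −0.53 to 0.35 in log2. The ratios of the CNR1 probes as reported, −2.30 and −0.64, lay outside it. That of the brighter CNR1 probe with normexp and loess, −0.35, lay inside it. The dimmer probe A_32_P105637, well above background on 8 of 8 arrays of each culture, gave −0.41, −0.09 and −0.14. In KD1 vs CON it missed the filter on dim probes and was not tested. Without the filter on dim probes its interval there was −0.93 to 0.12, which holds the ratio of the dimmer CNR1 probe.

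FAAH, which breaks down anandamide, was well above background on 5 of 8 WT arrays, 4 of 8 CON arrays and 5 of 8 KD1 arrays. Its normalized signal was 30.3 and 15.2 in WT, 19.5 and 19.8 in CON, and 20.1 and 31.3 in KD1, so that WT and KD1 overlapped. The replicate log2 ratios of KD1 were 0.03 and 0.58 against CON but −0.56 and 1.19 against WT, on opposite sides of 0, and the gene could not be tested in any comparison. DAGLA, the other lipase that makes 2-arachidonoylglycerol, was well above background on 0 of 8 arrays of each culture, and its array ratios followed the dye and not the culture. With the first culture in Cy5 the DAGLA ratios lay between 0.56 and 0.70 on all 6 arrays, and with the first culture in Cy3 they lay between −0.84 and −0.36. In the deposited series table the DAGLA values were 0 on all 12 arrays.

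By counts, in KD1 vs CON 1 of the 4 genes tested passed the limma test, and of all 21937 probes tested 1.79% did (1.02% lower and 0.775% higher). For KD1 against WT it was also 1 of 4, beside 1.05% of 24884 probes (0.764% lower and 0.285% higher), and the gene was CNR1 both times. For WT against CON it was 0 of 5, beside 1.37% of 26595 probes (0.594% lower and 0.778% higher). Of the 5 enzymes, 3 were tested in each comparison (MGLL, DAGLB and NAPEPLD) and 0 passed. An unadjusted p under 0.05 was reached by MGLL in KD1 vs CON, by MGLL and DAGLB for KD1 against WT, and by DAGLB for WT against CON, and by 17.2%, 17.2% and 16.6% of all probes tested. The median log2 ratio of the tested genes in the same order was −0.55, −0.84 and 0.24, while that of all probes tested was −0.01, 0.01 and −0.03. These medians include CNR1 and carry no test. Without it, the tested genes in KD1 vs CON were MGLL at −0.999, DAGLB at −0.10 and NAPEPLD at −0.09.

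Another 46 genes of the endocannabinoid pathway, listed by role, gave a wider view, and 45 of them had a probe. In KD1 vs CON 1 of 24 tested genes passed, against the 1.79% of all probes. For KD1 against WT 0 of 29 passed, and for WT against CON 0 of 31. The gene that passed was CNRIP1, which encodes a protein that binds the C-terminal tail of CB1. Its normalized signal was 863 and 798 in WT, 473 and 470 in CON, and 1207 and 1364 in KD1, with no overlap between the cultures and CON lowest. CNRIP1 rose in KD1 relative to CON by 1.44 ± 0.19 on the log2 scale (SD, n = 2), 2.72-fold, on 4 of 4 arrays, with a limma adjusted p of 0.0201. For KD1 against WT it was 0.61 ± 0.28 (SD, n = 2, limma adjusted p 0.200) and for WT against CON 0.81 ± 0.04 (SD, n = 2, limma adjusted p 0.122), above 0 on all arrays of both. Its call in KD1 vs CON was lost without the filter on dim probes (adjusted p 0.0509) and with normexp and loess (0.0825). Between KD1 and CON the direction of CNRIP1 was thus opposite to that of CNR1, while both were higher in WT than in CON without passing the test.

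No other gene of that list passed. Among 17 further genes of ligand synthesis, 10 were tested in KD1 vs CON with a median log2 ratio of 0.25 and 0 calls. PTPN22, a phosphatase placed in an alternative route to anandamide, had the highest ratio of these, at 1.30 ± 0.91 (SD, n = 2, limma adjusted p 0.0948). Of 9 further genes of ligand breakdown or oxidation, 4 were tested in KD1 vs CON. FAAH2, a second fatty acid amide hydrolase, had a mean log2 ratio of −0.16 ± 0.42 in KD1 vs CON, 1.41 ± 0.81 for KD1 against WT and −1.47 ± 0.32 for WT against CON (SD, n = 2), so that its lowest level was in WT, but its limma adjusted p values of 0.847, 0.0759 and 0.0618 missed the threshold. ABHD6 and ABHD12, which also break down 2-arachidonoylglycerol, had 0.13 ± 0.25 and 0.50 ± 0.26 in KD1 vs CON (SD, n = 2, limma adjusted p 0.864 and 0.251).

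Carriers and alternative receptors gave no call either, but most could not be tested. In KD1 vs CON 1 of 3 carriers and 2 of 6 alternative receptors were tested. In each of the other comparisons it was 1 of 3 and 3 of 6. FABP3, a fatty acid-binding protein of muscle and heart, had replicate log2 ratios for KD1 of −0.10 and 2.85 against CON and of 1.19 and 4.37 against WT. Its replicates were far apart, and the limma adjusted p values were 0.371 and 0.123. TRPV1, an ion channel that anandamide can open, had log2 ratios for KD1 of −0.50 ± 0.02 against CON and −0.61 ± 0.22 against WT (SD, n = 2, limma adjusted p 0.275 and 0.211). The inhibitory G protein subunits through which CB1 signals, GNAI1, GNAI2 and GNAI3, had mean ratios of −0.12, −0.17 and −0.05 for KD1 against CON, and 0 of 5 tested signaling genes passed.

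**Figure D3:**
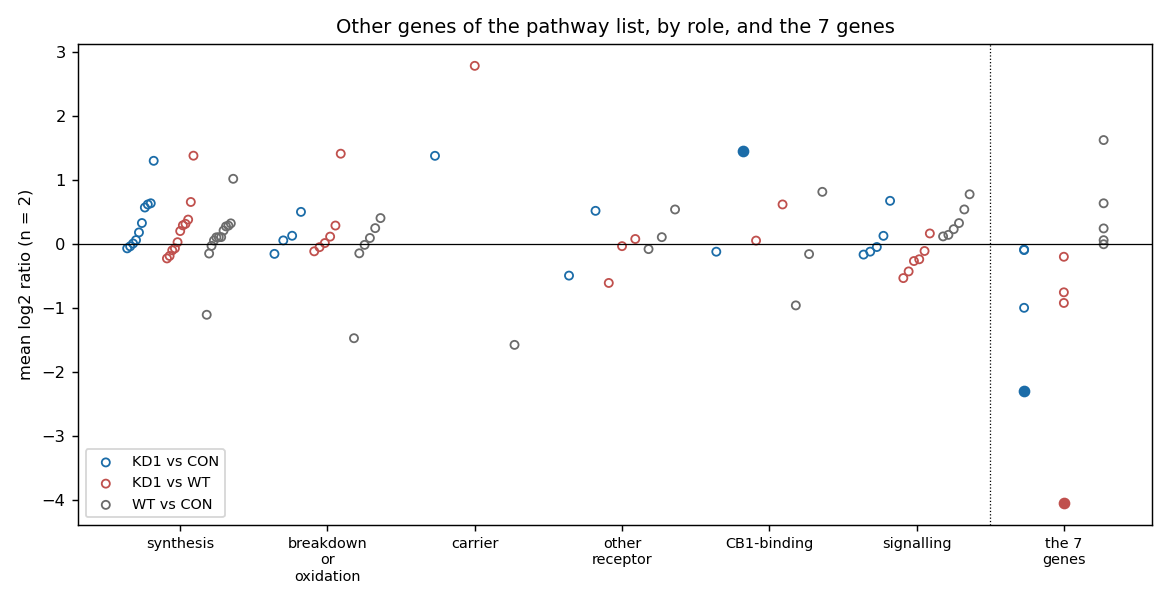
Mean log2 ratio (vertical axis, n = 2) of the tested genes of the 46-gene list by role (horizontal axis) and, to the right of the dotted line, of the tested genes among the 7; each point is 1 gene in 1 comparison, and filled points passed the limma test. The filled points are CNRIP1 above 0 in KD1 vs CON, and CNR1 below 0 in both KD1 comparisons.

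The genes whose 6 replicate log2 ratios lay nearest to those of the brighter CNR1 probe were not endocannabinoid genes. Among 11952 named genes tested in all 3 comparisons, the smallest root mean square differences were those of CDH6 (0.54), AGPAT9, now named GPAT3 (0.74), SYTL4 (0.83), COL2A1 (0.83) and FBN2 (0.94). CDH6 encodes a cadherin, GPAT3 an enzyme of triglyceride synthesis, SYTL4 a protein of vesicle release, and COL2A1 and FBN2 proteins of the extracellular matrix. Their mean log2 ratios ran from −3.38 to −1.81 for KD1 against CON, from −4.96 to −2.99 for KD1 against WT and from 0.46 to 2.89 for WT against CON. By the same measure MGLL lay at 2.21 (rank 240), DAGLB at 2.37 (rank 464) and NAPEPLD at 2.77 (rank 3271). The nearest genes were chosen for their likeness, so the values are a description and carry no test. Likeness to the dimmer CNR1 probe was not computed. That probe had mean log2 ratios for KD1 of −0.64 against CON and −0.79 against WT. In the same order MGLL had −0.999 and −0.92, DAGLB −0.10 and −0.76, and NAPEPLD by its brighter probe −0.09 and −0.20.

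**Figure D4:**
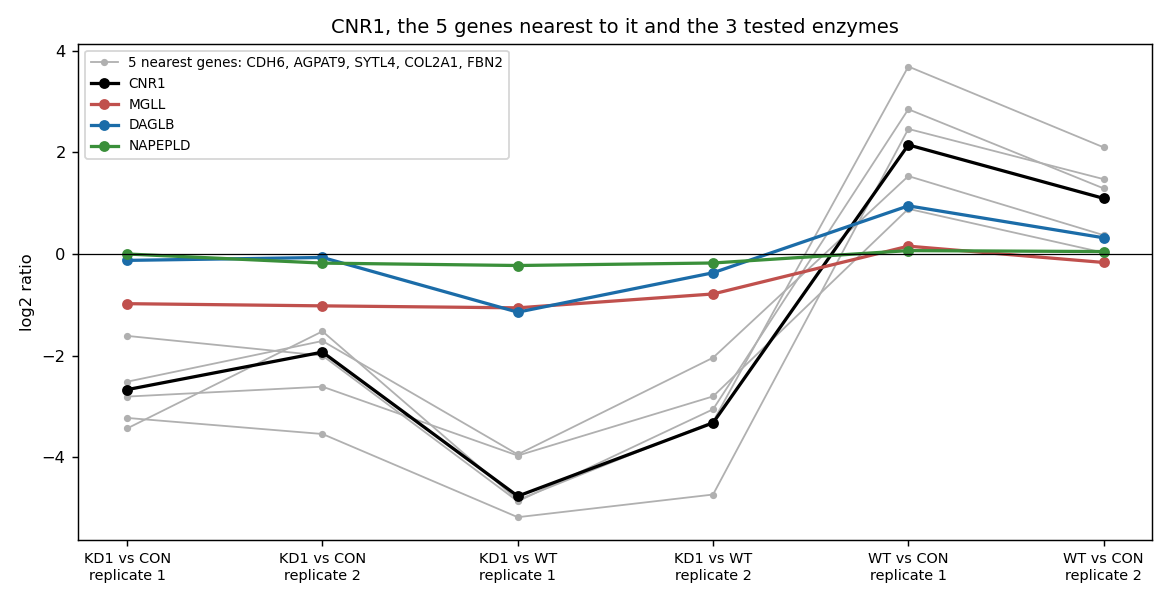
Log2 ratio (vertical axis) in the 2 replicates of each comparison (horizontal axis) for CNR1 by its brighter probe, the 5 genes nearest to that probe (grey) and the 3 enzymes that were tested. Lines only join the points of 1 gene. CNR1 and the grey genes ran from below −1.5 in every KD1 replicate to above 0 in WT vs CON, MGLL lay near −1 in the KD1 replicates and near 0 in WT vs CON, and NAPEPLD lay near 0 throughout.

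The 250 bases before the most upstream CNR1 start in RefSeq (build GRCh38.p14, chr6:88167350-88167599, minus strand, written 5′ to 3′ along the gene) are shown because PAX3-FKHR keeps the paired domain and the homeodomain of PAX3, and CNR1 was the gene of the 7 that passed the test. Capitals mark matches on either strand to ATTA, the core bound by many homeodomains, or to 1 of the 4 pentamers of the paired-domain site. These are the pentamer GTTCT, the pentamer GTTCC, the pentamer GTTAT and the pentamer GTTAC.
CNR1: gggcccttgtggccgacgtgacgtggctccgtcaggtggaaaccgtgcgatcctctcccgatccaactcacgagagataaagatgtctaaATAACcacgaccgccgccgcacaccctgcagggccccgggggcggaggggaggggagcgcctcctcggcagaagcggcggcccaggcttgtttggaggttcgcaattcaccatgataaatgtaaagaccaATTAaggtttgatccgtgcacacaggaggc

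On both strands this window held 1 match to ATTA, 30 bases before the start, and 1 match to GTTAT (on the reverse strand), 160 bases before it, with no overlap, and 0 matches to the other 3 pentamers. A promoter was found for 5 of the 7 genes, CNR1, CNR2, NAPEPLD, DAGLB and FAAH. ATTA was present 1 time in CNR2, 2 times in NAPEPLD and 0 times in DAGLB and FAAH. The 4 pentamers together had 3 matches in CNR2 (1 of them overlapping ATTA), 2 in NAPEPLD, 2 in DAGLB and 0 in FAAH. Of 27305 promoters of the same length, 48.4% held ATTA and 71.3% held at least 1 pentamer (33.8% held GTTCT, 38.6% held GTTCC, 17.6% held GTTAT and 17.8% held GTTAC). A match is only a run of letters, so these counts say nothing of binding.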

How the data were processed

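Each array compared 2 RNAs, labeled from 500 ng. The authors quantified spots with Agilent Feature Extraction 10.5.1.1 and deposited linear intensity values, background-subtracted, detrended and lowess-normalized within the array, and a log10 ratio per spot from the same signals. The deposited series table holds log2 ratios turned to the same directions. In it 16.6% of values were exactly 0, and 99.84% of the others lay within 0.01 of the ratios used here. Why values were set to 0 was not tested. From the processed intensities, log2 ratios were computed without outlier-flagged spots and averaged over each dye-swap pair. Dim probes were left out of a comparison unless, on every array of it, 1 channel or both had a background-subtracted signal over that array's 99th percentile of negative controls. Tests used R 4.3.3 and limma 3.58.1 (lmFit with eBayes, two-sided, Benjamini-Hochberg over all probes tested, threshold 0.05) on 6 replicate values with 2 residual degrees of freedom, because the 3 ratios of a replicate come from 3 extracts. For the same reason the variance was the residual sum of squares over 3. It was first taken over 2, and this was changed after the results were seen. The replicate number is a block by construction, since same-numbered extracts were hybridized together. Normalized signals per extract come from Aquantile normalization between arrays. The brightest probe stands for a gene, and probes were compared between cultures only. Genes named are the 7 genes, genes of the 46-gene list that passed a test, the 5 nearest to CNR1 and the PAX3 and FOXO1 probes. PTPN22, FAAH2, ABHD6, ABHD12, FABP3, TRPV1 and the G protein genes were named after their values were seen. The genes and lists were chosen with earlier results of these data known. The methods call the replicates biological. The p-values rest on the spread between these extracts of 1 clone or line each, which eBayes draws toward the spread of all probes tested. In KD1 vs CON the limma SE was 0.197 for MGLL, whose replicate SD was 0.030. For the brighter CNR1 probe it was 0.345, with a replicate SD of 0.52. Current names came from GRCh38.p14 (18609 of 19575 RefSeq accessions matched). Python 3.11.15, numpy 2.4.6, pandas 2.3.3 and matplotlib 3.10.9 were used. The fit was also run on simulated extracts with independently drawn errors, which cannot show whether the divisor of 3 suits these data.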

Additional observations from a re-analysis of the deposited data

How the results depend on the processing

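The decrease of CNR1 in KD1 vs CON passed the limma test as reported and with the series table, and missed it without the filter on dim probes (−2.30, adjusted p 0.0643), with median centring (−2.28, 0.0619), with separate channels without or with the replicate block (−2.34 in both, 0.0636 and 0.0663) and with normexp and loess (−0.35, 0.564). In KD1 vs WT it missed the test only with normexp and loess (−1.22, adjusted p 0.158). The offset of 50 in that setting exceeds the KD1 signal of the probe. The mean of both CNR1 probes gave −1.47 and −2.42. The divisor of 3 for the residual sum of squares was chosen after seeing the data. With the divisor of 2 that was used first, CNR1 missed the test in KD1 vs CON (−2.30, adjusted p 0.0950), and CNRIP1 did as well (adjusted p 0.0729). With 1 replicate left out, which gives values with no test, CNR1 lay between −2.67 and −1.93 in KD1 vs CON, between −4.77 and −3.32 in KD1 vs WT and between 1.09 and 2.15 in WT vs CON. The brighter CNR1 probe was not well above background on every KD1 array, so the strictest filter gives no value for it in either KD1 comparison. In KD1 vs CON the number of the 7 genes called was 1 as reported and 0 in each setting in which CNR1 missed the test and with the strictest filter, and in KD1 vs WT it was 0 with normexp and loess and with the strictest filter. The ratio of MGLL in WT vs CON changed from −0.01 to 0.0067 with normexp and loess, with an adjusted p of 0.992 in both. The number of probes called in KD1 vs CON, KD1 vs WT and WT vs CON, 393, 261 and 365 as reported, was 254, 183 and 200 without the filter, 26, 1 and 2 with normexp and loess, 208, 126 and 133 with median centring, 202, 126 and 114 with separate channels, 168, 110 and 102 with the replicate block added, and 113, 91 and 99 with the divisor of 2. The cause of these differences was not tested. Dim signals limit DAGLA, FAAH and CNR2 most.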
